A study of Rattus norvegicus with 15 samples.

Results

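The nuclear genes that encode subunits of the mitochondrial respiratory chain were examined in rat liver RNA. They were taken from the deposited count table as protein coding genes outside the mitochondrial chromosome whose symbols are those of complex I (Nduf genes of the a, b, c, s and v series), complex II (Sdha to Sdhd), complex III (Uqcr genes and Cyc1), cytochrome c (Cycs), complex IV (Cox4 to Cox8 genes) and ATP synthase, complex V (Atp5 genes). The rule gave 90 of the 32623 genes in the table, and 82 of them had enough reads to be tested. By complex, the numbers listed and tested were 38 and 36 for complex I, 4 and 4 for complex II, 10 and 10 for complex III, 20 and 14 for complex IV, and 17 and 17 for complex V, with Cycs alone for cytochrome c. All genes of the mitochondrial chromosome, which encodes the remaining subunits, had a count of 0 in every sample and could not be compared.

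Male Wistar rats of the control group (n = 4) received no treatment. In the cirrhosis group (n = 5), rats inhaled CCl4, a solvent that injures hepatocytes, for 12 weeks and were given phenobarbital (0.35 g/L) in their drinking water. In the cirrhosis & eplerenone group (n = 5), the same CCl4 and phenobarbital treatment was combined from week 8 to week 12 with eplerenone, a blocker of the mineralocorticoid receptor, at 100 mg/kg daily. Livers were removed 7 to 10 days after the last CCl4. The sequenced rats were a subgroup that the authors selected by how well the induction of cirrhosis or the eplerenone treatment had worked, the controls received neither CCl4 nor phenobarbital, and no group with eplerenone alone was analysed here. A control labelled replicate 1 was not analysed here. The comparisons ask which of these genes change when cirrhosis develops and whether eplerenone moves them.

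The respiratory chain passes electrons from NADH (complex I) and succinate (complex II) through coenzyme Q, complex III and cytochrome c to oxygen at complex IV, and ATP synthase uses the proton gradient that complexes I, III and IV build. Hepatocytes are rich in mitochondria and need this ATP for gluconeogenesis, urea synthesis and bile formation. Several complex IV subunits exist as a form found in most tissues and a second form typical of heart and skeletal muscle, testis or lung.

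Between 16157491 and 21574767 reads per liver were counted on genes. Levels are given as FPM, reads per 1000000 reads of the library size after TMM scaling, in which 3 reads stand for 0.121 to 0.191 FPM. On the first principal component of the 500 most variable genes, cirrhosis replicate 5 (-13.0) and cirrhosis & eplerenone replicates 2 (-26.8) and 4 (-12.1) lay on the side of the controls (-50.6 to -44.3), and cirrhosis & eplerenone replicate 3 (42.6) lay among the other cirrhosis samples (38 to 47.7). Of the marker lists, 7 of 11 stellate cell and myofibroblast genes, 6 of 7 cholangiocyte genes and 4 of 9 lymphocyte genes were upregulated in cirrhosis. Among 15 hepatocyte genes 2 were downregulated and none was upregulated, 1 of 11 macrophage genes was downregulated, and of 8 endothelial genes 1 rose and 3 fell. Over all tested protein coding genes 13.9% were upregulated and 6.76% downregulated. The labels also give each rat a number (13 or 16 in controls, 15 or 20 in rats given CCl4) whose meaning is not stated. Because no rat given CCl4 shares a number with a control, that number and the CCl4 treatment cannot be told apart.

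In cirrhosis, few respiratory chain genes passed the test, and those that did went in both directions. Against control, 4 of the 82 tested genes were DEG (edgeR's quasi-likelihood test, Benjamini-Hochberg FDR below 0.05), where 20.6% of all tested protein coding genes were called (13.9% higher and 6.76% lower). Cox6b2, Cox6a2 and Atp5if1 rose and Uqcrfs1 fell, though Cox6a2 had enough reads to be tested only through livers in which it was high. DESeq2 called these 4 genes and no others, beside 28.2% of protein coding genes. In 1 gene the cirrhosis group lay wholly above control (beside 11.5% of protein coding genes) and in 3 wholly below (beside 9.07%). The median log2FC over the 82 genes was 0.14, with 57 higher and 25 lower, beside -0.01 over all protein coding genes. By complex it was 0.07 for complex I, -0.31 for complex II, 0.21 for complex III, 0.24 for complex IV and 0.16 for complex V. Complex II was the only complex with more genes lower (3) than higher (1). Without TMM scaling, which moved the median of all genes to 0.28, its median was -0.038 with 2 genes on each side. In whole liver RNA, fewer cells of a type and less RNA per cell cannot be told apart.

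The values of single rats showed a wide split inside the cirrhosis group. In cirrhosis replicate 1, 56 of 82 genes lay above all 4 controls and 7 below all of them, and in replicate 3 the numbers were 59 and 9. The reverse held in replicates 2 and 4, where 50 genes each lay below all controls and 3 and 6 lay above. Replicate 5 had 5 genes above and 21 below. Over all protein coding genes the same counts were balanced in each rat, from 27% above and 25.3% below in replicate 5 to 38.6% and 39.3% in replicate 3.

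**Figure D1:**
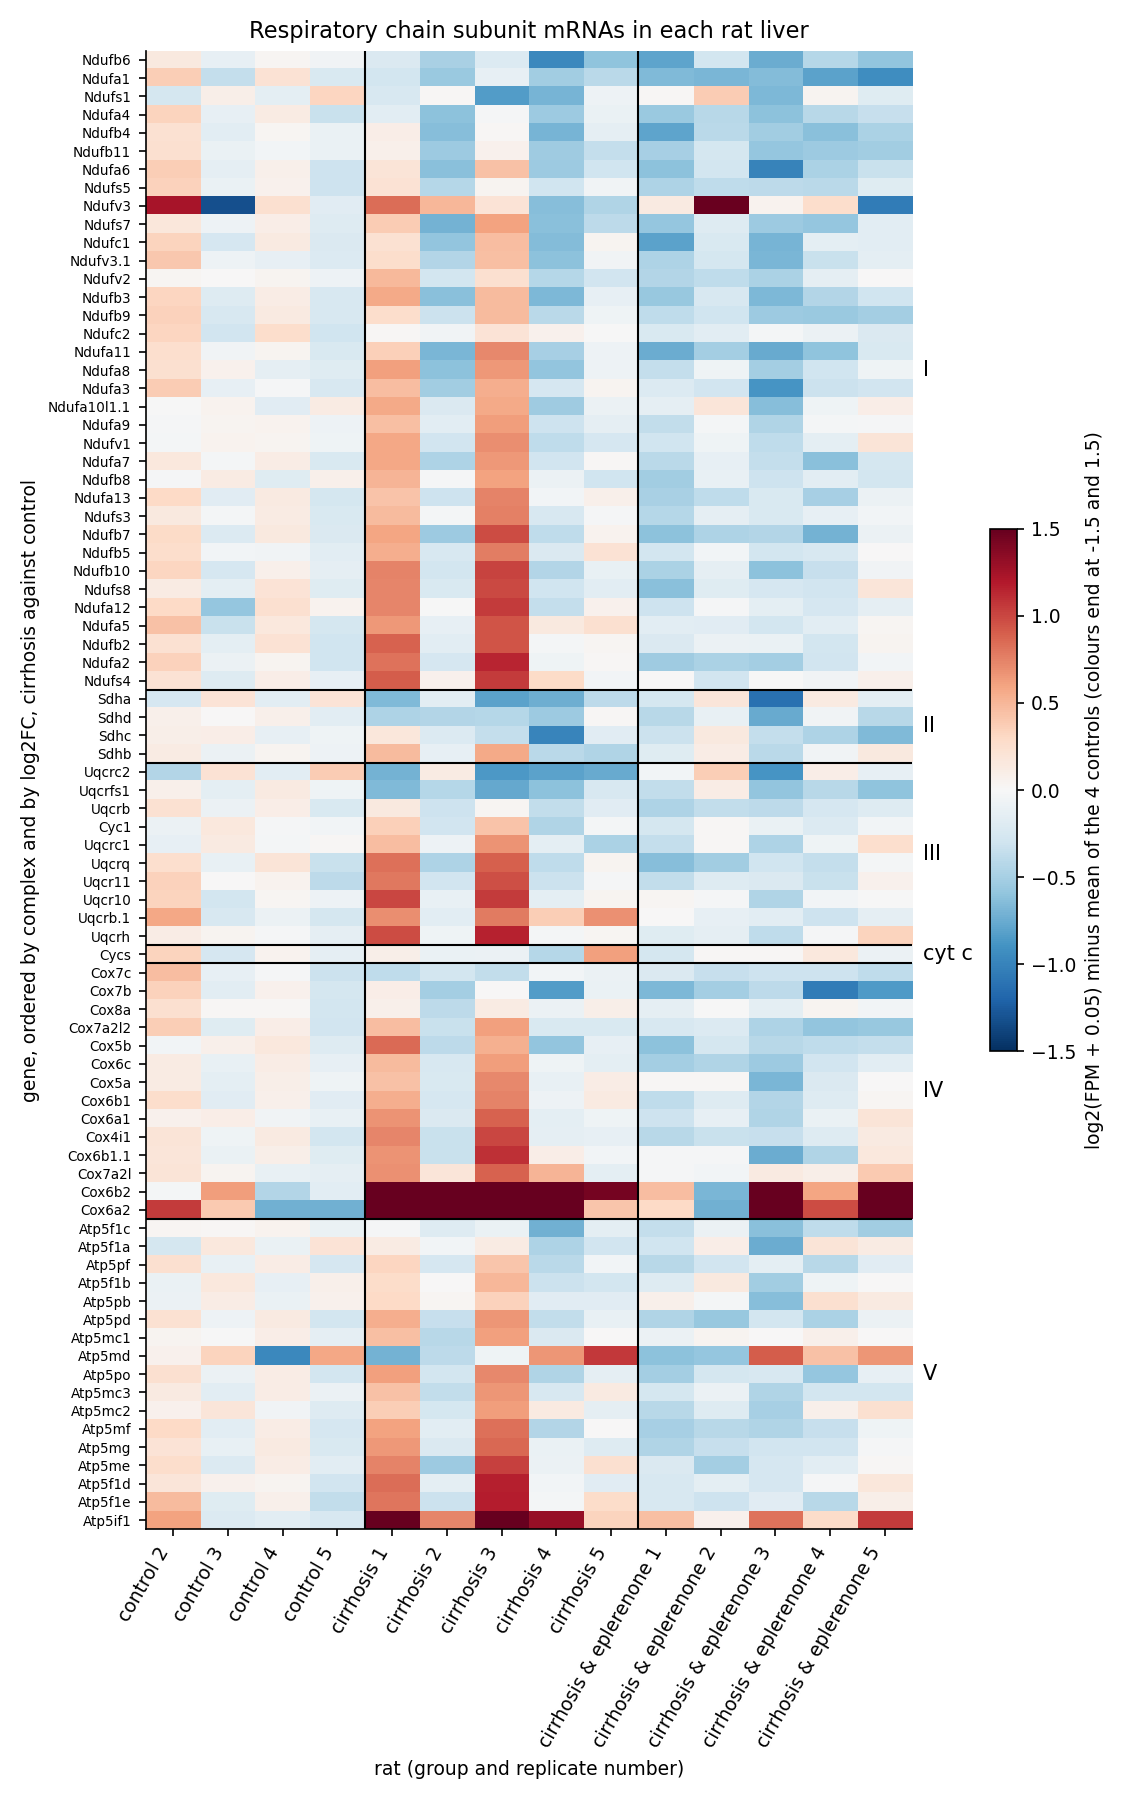
Level of 81 of the 82 tested genes (rows, by complex) in each of the 14 livers (columns), as log2(FPM + 0.05) minus the mean of the 4 controls, with colours ending at -1.5 and 1.5. Cirrhosis replicates 1 and 3 were red for most genes of complexes I, III, IV and V, whereas Sdha, Uqcrc2 and Uqcrfs1 were blue in the same 2 livers.

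The mean log2 FPM of the 36 complex I genes was 6.79 in cirrhosis replicate 1 and 6.89 in replicate 3, above the highest control (6.64). It was 6.07, 6.01 and 6.29 in replicates 2, 4 and 5, and 5.93 to 6.23 in the 5 cirrhosis & eplerenone livers, of which all lay below the lowest control (6.25). In complexes III, IV and V replicates 1 and 3 were again the highest of the 5 cirrhosis livers, at 7.28 and 7.33 for complex III against controls of 6.78 to 7.02, and at 7.75 and 7.94 for complex V against controls of 7.17 to 7.43. Complex II did not follow: its mean was below the lowest control (7.32) in all 5 cirrhosis livers, at 7.24, 7.13, 7.10, 6.69 and 7.11 in replicates 1 to 5. Thus in replicates 1 and 3 the mean of complex II lay below the controls while the means of the other 4 complexes lay above them. The 4 complex II genes did not move together in these livers. In replicate 1, 2 of them lay above all controls and 2 below, and in replicate 3, 1 lay above and 3 below.

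**Figure D2:**
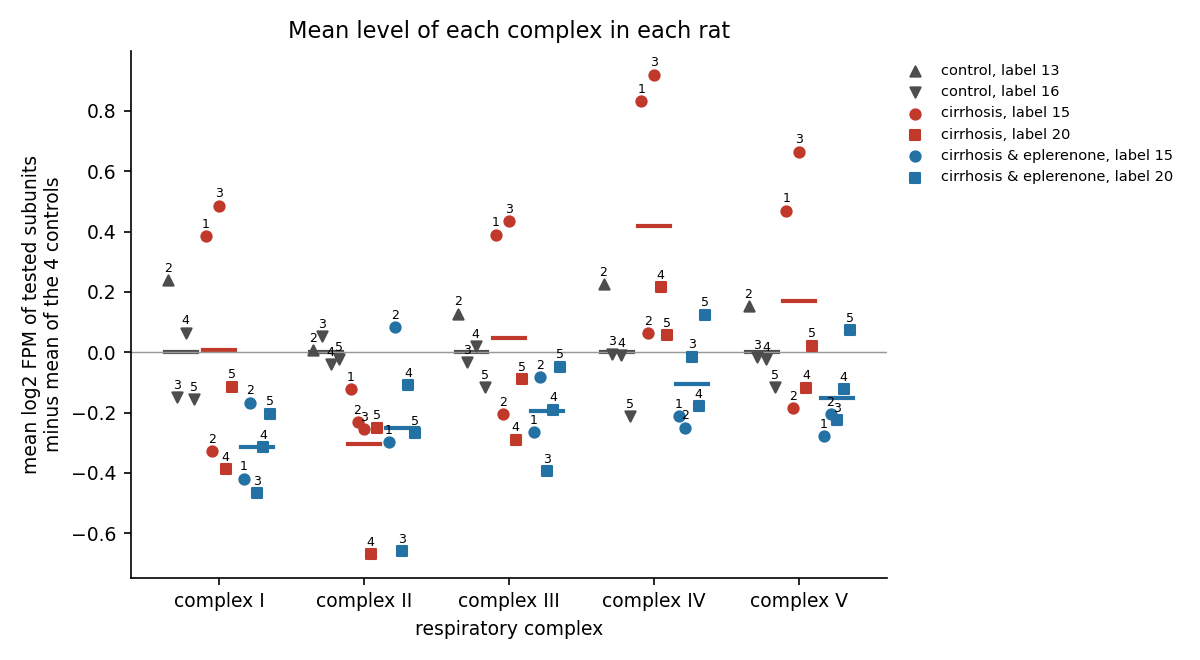
Mean log2 FPM of the tested genes of each complex in each liver, minus the mean of the 4 controls. Points are rats with their replicate number, the marker shape gives the label number and bars are group means; cirrhosis replicates 1 and 3 lie highest for complexes I, III, IV and V but not for complex II.

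Replicates 1 and 3 share the label number 15 with cirrhosis replicate 2, which lay with replicates 4 and 5 (label number 20) for most genes. They also carried the highest summed levels of stellate cell genes in the group (568 and 582 FPM, the others 295 to 408) and of macrophage genes (933 and 690 FPM, the others 253 to 522). Their hepatocyte genes summed to 108010 and 110080 FPM, near replicate 4 (112656 FPM) and below replicates 2 (132703 FPM) and 5 (171918 FPM). Endothelial genes were also highest in replicates 1 and 3 (328 and 300 FPM). Cholangiocyte genes (161 FPM) and lymphocyte genes (32.1 FPM) were highest in replicate 2. With eplerenone, replicates 2 and 3 had 549 and 603 FPM of stellate cell genes, and replicate 5 had 907 FPM of macrophage genes. The mean log2 FPM over the 82 genes was 6.45, 6.28 and 6.54 in those livers, and 7.07 and 7.16 in cirrhosis replicates 1 and 3. The part of cell composition in the levels of the respiratory chain genes was not tested.

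Without these 2 livers, which were set aside after their values had been seen, the direction of the comparison turned. Among the 82 genes then tested, 72 were lower and 10 higher in cirrhosis than in control (49.8% of protein coding genes were lower), and the median was -0.21. Of these, 1 gene was DEG, Ndufb6 (downregulated, log2FC -0.65, FDR = 0.035, edgeR), beside 7.37% of protein coding genes. Medians by complex were then -0.26, -0.34, -0.21, -0.12 and -0.15 for complexes I to V. With all rats kept but library sizes without TMM scaling, the median of the respiratory chain genes became 0.40, with 11 genes called, all upregulated, beside 24.3% of protein coding genes called and 21.8% called higher. The 2 livers were the highest of the group for complexes I, III, IV and V, so a fall of those medians was built into the choice. For complex II, where they were not both among the highest, the median was -0.31 with them and -0.34 without them. Livers set aside by their own values cannot support a contrast between the complexes.

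Cox6b2 (ENSRNOG00000038616, chromosome 1), a form of complex IV subunit 6b known from testis, was the only gene whose cirrhosis group lay wholly above control. It reached 4.77, 2.49, 4.58, 1.59 and 1.25 FPM in cirrhosis replicates 1 to 5, against 0.422, 0.694, 0.305 and 0.382 FPM in control replicates 2 to 5. The log2FC was 2.68 ± 0.62 (SE, FDR = 0.0092, edgeR), and without cirrhosis replicates 1 and 3 it was 1.99 with an FDR of 0.075, the highest of 24 alternatives (the lowest was 0.00017). In cirrhosis & eplerenone its values were 0.613, 0.250, 1.54, 0.677 and 2.08 FPM, and replicate 2 fell below all controls. Relative to its partner Cox6b1, the form found in most tissues, Cox6b2 had 2.12 to 5.73 reads per 1000 Cox6b1 reads in the controls, 8.34 to 24 in the cirrhosis livers and 2.10 to 15.3 in those given eplerenone. Cox6b1 itself was at 138 ± 20.8 FPM (SD, n = 4) in control and 164 ± 48.3 FPM (SD, n = 5) in cirrhosis and was not DEG (log2FC 0.25, FDR = 0.38, edgeR).

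Cox6a2 (ENSRNOG00000019851, chromosome 1), the heart and skeletal muscle form of subunit 6a, was present at a few reads. Controls held 2, 1, 0 and 0 reads, and cirrhosis replicates 1 to 5 held 21, 11, 18, 22 and 1. Summed over the group, 73 cirrhosis reads stood against 3 control reads, a ratio of 16.5 per library size with an exact 95% interval of 5.42 to 81.8 that covers counting error only. The fitted log2FC of 3.87 ± 1.24 (SE, FDR = 0.040, edgeR) depends on the offset used for such low counts and is no bound. Leaving out any 1 of the 4 controls raised its FDR to between 0.055 and 0.11, so the call rests on each of them, and the gene was not tested in every alternative.

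Of 13 muscle and brown fat genes in the table, 2 had enough reads to be tested, and both rose. Scarce genes tend to pass the filter on reads where they are high, so their rise is no support for that of Cox6a2. Tnnt3, fast skeletal muscle troponin T, had a log2FC of 2.38 ± 0.79 (FDR = 0.045, edgeR). Cidea, a lipid droplet protein of brown fat also found in fatty liver, had 1.03 ± 0.32 (FDR = 0.033, edgeR). Of the 13 genes, 2 (Actc1 and Myh7) had no read in any liver, and the others had at least 1 read. The whole list summed to 3.66 to 8.93 FPM in control, 6.61 to 21.6 FPM in cirrhosis and 9.09 to 13.6 FPM with eplerenone, and its part in the Cox6a2 reads was not tested. The other muscle forms, Cox7a1 and Cox8b, were near absent, with at most 9 and 8 reads in a liver. Cox8c, Cox7b2 and the copy listed as Cox6c.ps1, which are not muscle forms, had no read. Cox4i2, a lung form of subunit 4 that responds to low oxygen, had 0 to 6 reads in controls, 16, 11, 22, 3 and 0 in cirrhosis replicates 1 to 5 and 2 to 11 with eplerenone, too few to be tested. Ndufa4l2, a hypoxia-inducible relative of Ndufa4, had 0 to 15 reads with no group apart from the others.

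Atp5if1 (ENSRNOG00000013300, chromosome 5) encodes the inhibitory factor that binds ATP synthase and keeps it from hydrolysing ATP when the membrane potential falls. Control replicates 2 to 5 had 34.9, 20.1, 20.7 and 19.5 FPM, and cirrhosis replicates 1 to 5 had 71.1, 38.4, 77.1, 57.0 and 29.0 FPM. Only cirrhosis replicate 5 overlapped with the controls, through control replicate 2, and the log2FC was 1.20 ± 0.30 (SE, FDR = 0.014, edgeR). It was 1.11 with an FDR of 0.053 without control replicate 5, and 0.84 with an FDR of 0.10 without cirrhosis replicates 1 and 3. Over all 25 alternatives the log2FC stayed between 0.84 and 1.48 and the FDR between 0.0011 and 0.10. Cirrhosis & eplerenone livers overlapped with both groups at 31.4, 24, 40.5, 27.9 and 47.6 FPM. None of the other 16 tested ATP synthase genes was DEG, and their log2FC ran from -0.21 (Atp5f1c) to 0.45 (Atp5f1e).

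Uqcrfs1 (ENSRNOG00000018281, chromosome 17), the Rieske iron-sulfur protein of complex III, fell. It was at 184, 158, 192 and 167 FPM in controls and at 110, 129, 102, 114 and 148 FPM in cirrhosis, with no overlap, and the log2FC was -0.54 ± 0.18 (SE, FDR = 0.045, edgeR). The call stood close to the threshold. Leaving out any 1 of the controls or any of cirrhosis replicates 1 to 4 gave an FDR of 0.053 to 0.11, as did leaving out cirrhosis & eplerenone replicate 1 or 4 (0.054 and 0.057), while the log2FC stayed between -0.62 and -0.25 in all 25 alternatives, in which the FDR ran from 0.016 to 0.32. With eplerenone 1 liver, replicate 2 at 189 FPM, returned to the control range and the other 4 were at 114 to 135 FPM.

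**Figure D3:**
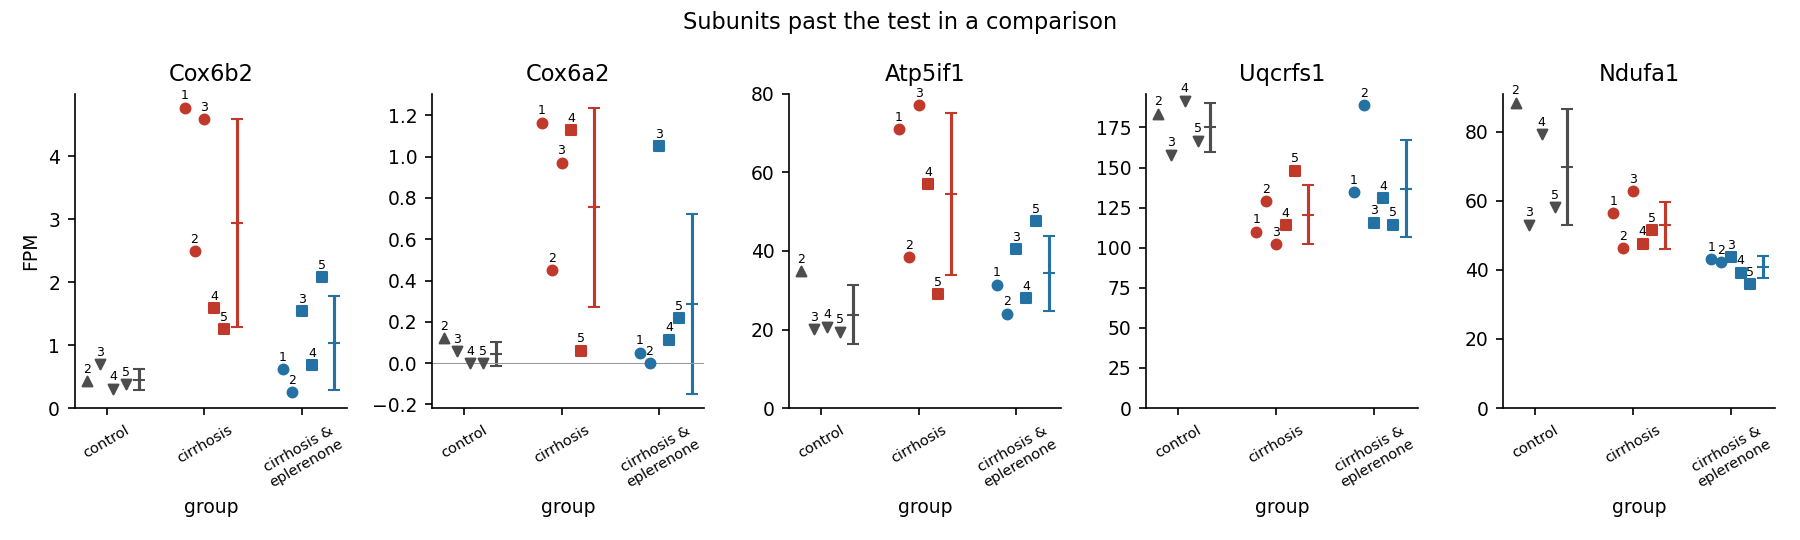
FPM of the 5 genes that were DEG in a comparison, by group, with points as rats numbered by replicate, shapes as label numbers and bars as mean ± SD. The cirrhosis group lies above control without overlap for Cox6b2 and below it for Uqcrfs1, and all 5 cirrhosis & eplerenone livers lie below the other 9 for Ndufa1.

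Complex I carries NADH oxidation in a set of 7 nuclear core subunits, surrounded by accessory subunits that support assembly and stability. In cirrhosis none of the 36 tested genes was DEG, 22 were higher and 14 lower, and log2FC ran from -0.47 to 0.51. The core subunits did not all follow the same order of rats. Ndufs1, the largest core subunit, was at 73.8, 93.6, 79.9 and 110 FPM in controls and 74.8, 89.2, 49.6, 54.4 and 84.0 FPM in cirrhosis, and the groups overlapped. By contrast Ndufv1, which binds NADH, was at 151 to 164 FPM in controls and 235, 129, 256, 121 and 132 FPM in cirrhosis, so replicates 1 and 3 lay above and the other 3 below every control. Ndufs7 and Ndufs8, which carry the last iron-sulfur clusters before the quinone, were also highest in replicates 1 and 3. Ndufs7 was at 140 and 164 FPM there and at 66.2 to 81.9 FPM in the other 3, against 94.6 to 121 FPM in control. Ndufs8 was at 131 and 156 FPM and at 63.8 to 70.6 FPM, against 69.6 to 91.0 FPM in control. Ndufs3 and Ndufv2 had log2FC of 0.23 and -0.01 and were not DEG.

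Among accessory subunits the lowest log2FC was that of Ndufb6, a membrane arm subunit, at -0.47 ± 0.17 (FDR = 0.059, edgeR). Its cirrhosis values of 50.0, 41.7, 50.6, 29.8 and 38.4 FPM all lay below the controls (64.4, 53.6, 59.6 and 56.3 FPM). At the other end was Ndufs4, a subunit needed for the stability of the NADH-binding module, with 88.2, 49.2, 97.3, 57.4 and 45.8 FPM in cirrhosis against 54.8, 41.2, 50.6 and 43.2 FPM in control (log2FC 0.51 ± 0.22, FDR = 0.10, edgeR). Ndufa4, now known to be part of complex IV, was at 293 ± 59.3 FPM (SD, n = 4) in control and 240 ± 43.9 FPM (SD, n = 5) in cirrhosis and was not DEG. The second rows of Ndufv3 and Ndufa10l1 carry nearly all reads of these symbols. Multi-mapping reads were kept in the counts, so the levels of near-identical gene copies are uncertain.

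Complex II, succinate dehydrogenase, also belongs to the TCA cycle and has no subunit encoded in mitochondria. Sdha, its flavoprotein, was at 193, 264, 206 and 266 FPM in control and 146, 205, 131, 138 and 175 FPM in cirrhosis, where only replicate 2 reached the control range (log2FC -0.55 ± 0.24, FDR = 0.11, edgeR). The membrane anchor Sdhd was at 135 to 159 FPM in control and 109, 111, 112, 103 and 152 FPM in cirrhosis (log2FC -0.36, FDR = 0.14). Sdhc, the second anchor, was at 115 to 134 FPM in control and 63.0 to 141 FPM in cirrhosis. Sdhb, the iron-sulfur subunit, did not share this pattern: cirrhosis replicates 1 and 3 had 232 and 249 FPM, above the controls (158 to 182 FPM), and replicates 2, 4 and 5 had 154, 127 and 123 FPM, below them. In the setting of 4 samples per group, which drops cirrhosis replicate 5 and eplerenone replicate 3, Sdha and Sdhd were both downregulated (FDR 0.037 and 0.025, edgeR), and 7 of 81 genes were called beside 34.7% of protein coding genes. Over all alternatives the FDR ran from 0.037 to 0.39 for Sdha and from 0.025 to 0.71 for Sdhd.

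In complex III the core protein Uqcrc2 had the lowest log2FC (-0.58 ± 0.26, FDR = 0.12, edgeR). Controls were at 66.2, 104, 80.2 and 117 FPM, and cirrhosis replicates 1, 3, 4 and 5 were at 54.9, 49.5, 51.2 and 53.0 FPM, below all of them, whereas replicate 2 was at 97.7 FPM. Without replicate 2 the gene was DEG (log2FC -0.81, FDR = 0.030, edgeR), and over all alternatives the FDR ran from 0.030 to 0.43. The partner core protein Uqcrc1 went the other way in replicates 1 and 3, at 273 and 317 FPM against 182 to 217 FPM in control, and was at 188, 179 and 142 FPM in replicates 2, 4 and 5. Uqcrh, the hinge protein, had the highest log2FC of the complex (0.51 ± 0.26, FDR = 0.16). Cyc1, the cytochrome c1 subunit, and Cycs, the mobile carrier, had log2FC of 0.04 each and neither was DEG. The 2 rows of Uqcrb, on chromosomes 1 and 7, differed (log2FC -0.13 and 0.47), and neither was DEG.

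Complex IV subunits other than the 2 forms above stayed between -0.25 (Cox7c) and 0.46 (Cox7a2l), and none was DEG. Cox4i1, the first nuclear subunit to assemble, was at 600, 502, 576.2 and 433 FPM in control and 867, 416, 1047, 475 and 481 FPM in cirrhosis, again high in replicates 1 and 3 and within or just below the control range elsewhere. Cox6a1 showed the same order, with 435 and 504 FPM in those rats and 235 to 261 FPM in the others, against 252 to 293 FPM in control. Cox8a did not, at 147 to 210 FPM in control and 136 to 193 FPM in cirrhosis. Cox7a2l, a factor of respirasome assembly, was at 64.9 to 81.3 FPM in control and 114, 80.3, 131, 100.8 and 64.3 FPM in cirrhosis (log2FC 0.46 ± 0.19, FDR = 0.098, edgeR). Without cirrhosis replicate 5 it was DEG (0.58, FDR = 0.021), and over all alternatives the FDR ran from 0.019 to 0.46.

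The catalytic subunits of ATP synthase, Atp5f1a and Atp5f1b, had log2FC of -0.10 and 0.06. Atp5f1b was at 1324 to 1601 FPM in control, at 1739 and 2027 FPM in cirrhosis replicates 1 and 3, and at 1443, 1148 and 1187 FPM in replicates 2, 4 and 5. The 3 genes for the same c-ring peptide, Atp5mc1, Atp5mc2 and Atp5mc3, had log2FC of 0.14, 0.18 and 0.17, with cirrhosis replicates 1 and 3 the highest of the group for each.

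**Figure D4:**
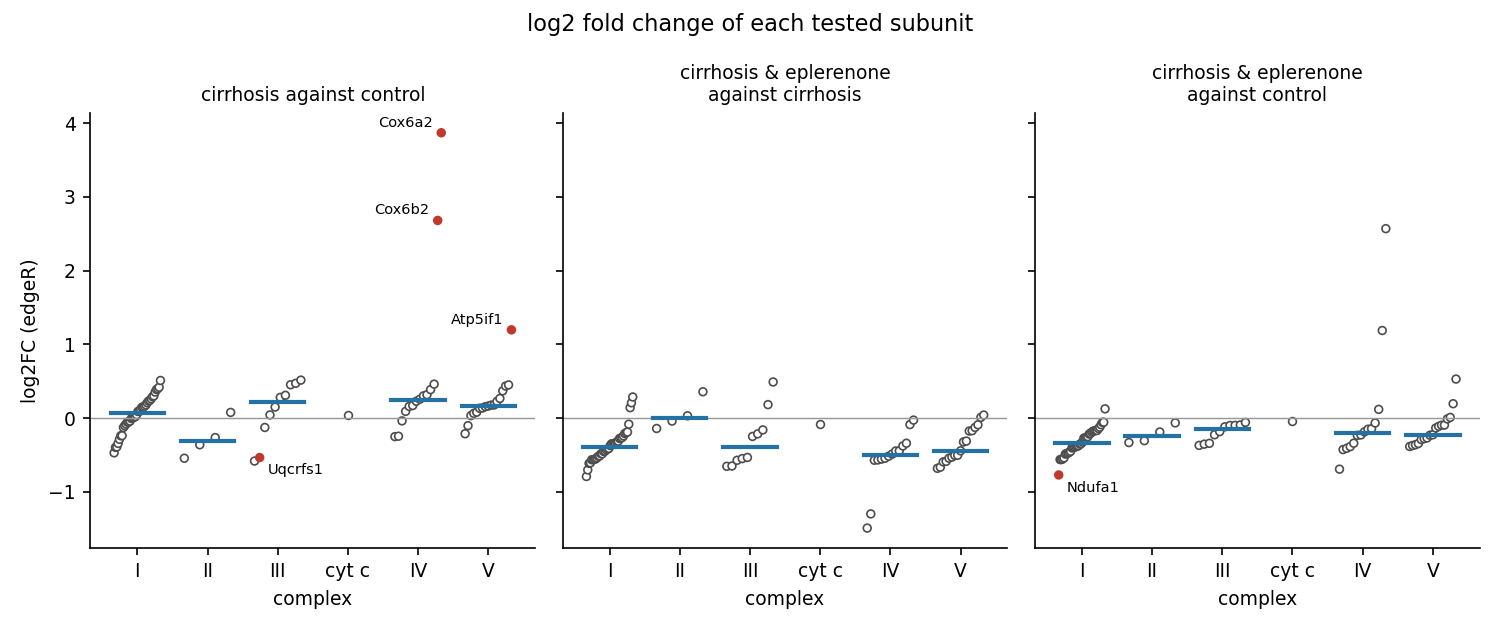
log2FC of each tested gene (circles, ordered by value within a complex) in the 3 comparisons, with DEG filled and named and blue bars at the median of a complex. In cirrhosis & eplerenone against cirrhosis 73 of 82 genes lie below 0 and none is DEG.

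With eplerenone, respiratory chain genes were lower than in cirrhosis alone, without a single DEG. Against cirrhosis, 73 of 82 genes (89.0%) had a log2FC below 0, where 49.0% of all protein coding genes did, and the median was -0.42 beside 0.01 for all protein coding genes. By edgeR's quasi-likelihood test, 0 of the 82 were DEG beside 0.0147% of protein coding genes, and the lowest FDR was 0.31. DESeq2 also called 0, beside 0.492% of protein coding genes. At an unadjusted p below 0.05 there were 37 of the 82, all lower, beside 14.5% of protein coding genes. Medians were -0.39 for complex I, -0.01 for complex II, -0.39 for complex III, -0.50 for complex IV and -0.45 for complex V. The genes of 1 pathway vary together between rats, so the 82 values are not independent.

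Ndufa2, an accessory complex I subunit picked after its values were seen, had the lowest log2FC of its complex. It was at 137, 65.0, 171, 74 and 78.6 FPM in cirrhosis and 53.6, 55.7, 54.6, 63.6 and 75.7 FPM in cirrhosis & eplerenone, and its log2FC was -0.79 ± 0.27 (FDR = 0.31, edgeR). The 2 highest cirrhosis livers were replicates 1 and 3, and the remaining 3 were at 65.0 to 78.6 FPM, of which replicates 2 and 4 lay inside the eplerenone range. Without those 2 livers the median over the 82 genes was -0.07, with 57 lower and 25 higher (50.2% of protein coding genes were lower), and 1 gene had an unadjusted p below 0.05, beside 3.55% of protein coding genes. Medians of complexes I to V then became -0.09, 0.16, -0.02, -0.11 and -0.07. Since the 2 livers were the highest of the cirrhosis group for complexes I, III, IV and V, a smaller difference was built into the choice. It cannot show whether the eplerenone difference came from these 2 livers alone.

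A few subunits had a log2FC above 0, and none of them passed the test. Uqcrc2 was at 87.2, 116, 48.6, 96.1 and 82.6 FPM with eplerenone, within the control range in all but replicate 3 (log2FC 0.49 ± 0.25 against cirrhosis, FDR = 0.36). Sdha was at 191, 262, 106, 252 and 208 FPM (log2FC 0.36 ± 0.23, FDR = 0.44). Ndufs1 was at 89.7, 115, 55.2, 91.0 and 77.6 FPM (log2FC 0.29, FDR = 0.51). For each of these, replicate 3, which lay with the cirrhosis samples on the first principal component, was the lowest of the 5 eplerenone livers. With 4 samples per group, without cirrhosis replicate 5 and eplerenone replicate 3, 0 of 81 genes were called by edgeR while 9.23% of protein coding genes were, and 40 of the 81 had an unadjusted p below 0.05 (beside 31.5% of protein coding genes), 37 of them lower.

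Within label numbers the eplerenone comparison gave different values. Among rats with number 15 (2 eplerenone, 3 cirrhosis) the median log2FC was -0.59, 73 of 82 genes were lower and 32 had an unadjusted p below 0.05, beside 26.7% of protein coding genes. Among rats with number 20 (3 eplerenone, 2 cirrhosis) the median was -0.03, 51 were lower and 1 had an unadjusted p below 0.05, beside 1.09%. No respiratory chain gene was called by edgeR in either. The difference between the label numbers, tested as an interaction, gave 0 of 82 genes called and 2 with an unadjusted p below 0.05, beside 0 called and 12.1% of protein coding genes. These 2 were Cox6b2 (log2FC -3.18 ± 0.70 with number 15 and 0.03 ± 0.61 with number 20, FDR of the difference 0.37) and Ndufs8 (-1.0 ± 0.35 and 0.15 ± 0.34, FDR 0.40, edgeR). For the 4 complex II genes the median difference was -0.06, beside 0.54 over all 82 genes. Sdhb differed from this median, with a log2FC of -0.40 with number 15 and 0.36 with number 20. Within the cirrhosis group, number 15 against 20, the median was 0.49 and 14 of the 82 had an unadjusted p below 0.05 beside 8.41% of protein coding genes. Cirrhosis replicates 1 and 3 both carry number 15.

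**Figure D5:**
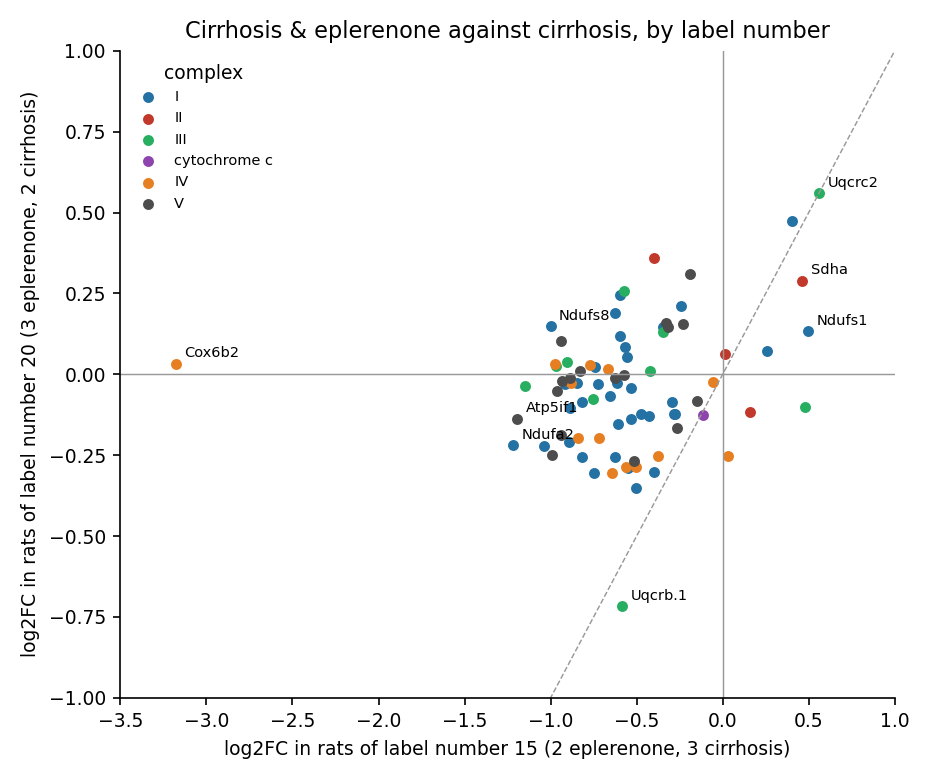
log2FC of cirrhosis & eplerenone against cirrhosis for 81 tested genes, in rats with label number 15 (horizontal) and 20 (vertical), with the dashed line at equal values and colours for complexes. Cox6a2, with few reads, is left out; most genes lie between -1.2 and -0.2 on the horizontal axis and near 0 on the vertical, while Uqcrc2 and Sdha are above 0 on both.

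Against untreated controls, respiratory chain genes in cirrhosis & eplerenone livers were slightly lower on the TMM scale. The log2FC was below 0 for 75 of 82 (91.5%, beside 49.3% of protein coding genes) with a median of -0.23, and 1 gene, Ndufa1, was DEG by edgeR beside 5.35% of protein coding genes (4.5% higher and 0.851% lower). With 4 samples per group the number was also 1, beside 4.95%. On library sizes without TMM scaling, which moved the median of all genes by 0.32, 32 of the 82 were lower (beside 20.2% of protein coding genes), the median was 0.07 and none was DEG (beside 9.69%). Relative to the median of all protein coding genes, that of the respiratory chain genes was -0.24 with TMM scaling and -0.26 without it. Since both comparisons of cirrhosis & eplerenone use the same 5 livers, their values are not independent.

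Ndufa1 (ENSRNOG00000040005) lies on the X chromosome and encodes a membrane arm subunit essential for complex I assembly. It was at 88.5, 53.1, 79.4 and 58.1 FPM in control, 56.4, 46.2, 62.9, 47.6 and 51.5 FPM in cirrhosis and 43.1, 42.3, 43.6, 39.2 and 35.9 FPM in cirrhosis & eplerenone. Every eplerenone liver was below every other liver, and the spread within the group was the smallest of the 3 (SD 3.26 FPM). The log2FC against control was -0.77 ± 0.17 (SE, FDR = 0.015, edgeR) and against cirrhosis -0.37 ± 0.16 (FDR = 0.32). Without control replicate 2 or 4 the first was -0.64 and -0.71 with FDR of 0.055 and 0.052, and without TMM scaling it was -0.45. Over its 25 alternatives the FDR ran from 0.00065 to 0.15. In all, 9 genes of complexes I and IV had eplerenone values wholly below control (beside 4.39% of protein coding genes) and none wholly above (beside 6.7%). They were Ndufa1, Ndufa4, Ndufb4, Ndufb6, Ndufb9, Ndufb11, Cox5b, Cox6c and Cox7b. DESeq2 called Cox7b, Ndufb6 and Ndufb4 in addition to Ndufa1, beside 10.8% of protein coding genes. Cox7b, also X-linked, was at 177, 124, 146 and 116 FPM in control and 87.2, 97.9, 106, 66.9 and 77.0 FPM with eplerenone (log2FC -0.69, FDR = 0.071, edgeR).

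Transcription factors that drive these genes share short promoter motifs, in particular those of NRF-1, GABP (NRF-2) and YY1. Of 20 regulators of respiratory chain genes and mitochondrial DNA, 3 were downregulated in cirrhosis and none was upregulated. Of all tested protein coding genes, 20.6% were called (13.9% higher and 6.76% lower). Gabpa, the DNA-binding subunit of GABP, went from 16.9 ± 2.08 FPM (SD, n = 4) to 11.2 ± 2.62 FPM (SD, n = 5), a log2FC of -0.59 (FDR = 0.044). Yy1 went from 21.3 ± 3.93 to 11.9 ± 4.36 FPM (log2FC -0.84, FDR = 0.046), and Polg2, the accessory subunit of the mitochondrial DNA polymerase, had a log2FC of -0.71 (FDR = 0.042, edgeR). Nrf1 (log2FC 0.49, FDR = 0.076) and Tfam (-0.13, FDR = 0.47) were not DEG. None of the 20 was DEG with eplerenone against cirrhosis or control.

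The promoters of 6 genes described above are shown, since they include those in which the factors' motifs were found and those in which they were not. They are the 180 bases before the annotated start from RefSeq (assembly GRCr8, while reads were counted on rn6), 5′ to 3′ on the strand of the gene, with matches to the motifs of NRF-1 (GCGCANGCG), GABP (CCGGAAG) and YY1 (AAGATGGCG) on either strand in capitals. Sdha lies at chr1:30764373-30764552 (+), Sdhd at chr8:59850642-59850821 (-), Uqcrc2 at chr1:184599060-184599239 (+), Ndufa1 at chrX:121293556-121293735 (-), Atp5if1 at chr5:150026678-150026857 (-) and Cox6b2 at chr1:78122691-78122870 (+).
Sdha: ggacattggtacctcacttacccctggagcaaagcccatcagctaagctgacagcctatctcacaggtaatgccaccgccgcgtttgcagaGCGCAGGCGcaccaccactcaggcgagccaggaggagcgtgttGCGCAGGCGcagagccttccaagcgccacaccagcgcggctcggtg
Sdhd: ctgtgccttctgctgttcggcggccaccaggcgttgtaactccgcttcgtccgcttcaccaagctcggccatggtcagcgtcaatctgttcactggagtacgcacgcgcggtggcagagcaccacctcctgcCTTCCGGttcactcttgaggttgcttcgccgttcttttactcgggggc
Uqcrc2: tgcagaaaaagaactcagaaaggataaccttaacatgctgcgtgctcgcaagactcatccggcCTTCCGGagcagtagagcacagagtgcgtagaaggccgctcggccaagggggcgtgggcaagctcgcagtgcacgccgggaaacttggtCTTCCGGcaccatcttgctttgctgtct
Ndufa1: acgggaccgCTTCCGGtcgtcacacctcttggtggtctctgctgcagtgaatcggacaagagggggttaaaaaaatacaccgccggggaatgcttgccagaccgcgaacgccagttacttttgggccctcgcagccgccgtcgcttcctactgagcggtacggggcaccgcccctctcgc
Atp5if1: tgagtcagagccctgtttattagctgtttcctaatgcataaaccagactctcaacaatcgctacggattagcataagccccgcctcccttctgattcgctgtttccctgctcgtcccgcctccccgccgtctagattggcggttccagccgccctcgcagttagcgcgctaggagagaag
Cox6b2: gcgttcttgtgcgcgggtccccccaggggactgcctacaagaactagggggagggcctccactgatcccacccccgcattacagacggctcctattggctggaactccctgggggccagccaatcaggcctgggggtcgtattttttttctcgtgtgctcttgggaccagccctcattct

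Sdha has 2 NRF-1 matches, Uqcrc2 has 2 GABP matches, Sdhd and Ndufa1 have 1 GABP match each, and Atp5if1 and Cox6b2, both upregulated in cirrhosis, have no match in this window. In promoters of 300 bases (250 before the start to 50 after it), which were found for 73 of the 90 genes, 24.7% held the NRF-1 motif, 26% the GABP motif and 12.3% the YY1 motif. The shares among 21842 promoters of protein coding genes were 7.62%, 10.7% and 2.07%. The core of the hypoxia response motif (ACGTG) was in 26% and 19.9%. Genes that were higher in cirrhosis without being DEG also held matches in the promoters of 300 bases, among them Uqcrh (GABP), Cox7a2l (NRF-1) and Ndufs4 (YY1). No matches to different motifs overlapped in the respiratory chain genes.

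Median changes were computed for genes with and without each motif. In cirrhosis the median log2FC was 0.16 in 19 tested genes with the GABP motif and 0.15 in 49 without it, 0.15 and 0.14 for YY1 (9 and 59 genes), 0.16 and 0.14 for NRF-1 (18 and 50 genes), and 0.17 and 0.08 for the hypoxia core (18 and 50 genes). With eplerenone against cirrhosis the values were -0.52 and -0.38 for GABP, -0.41 and -0.42 for YY1, -0.38 and -0.43 for NRF-1, and -0.45 and -0.39 for the hypoxia core. With eplerenone against control they were -0.28 and -0.23 for GABP, -0.29 and -0.23 for YY1, -0.25 and -0.23 for NRF-1, and -0.17 and -0.28 for the hypoxia core. A match is a description of letters only, and none of these differences was tested.

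Neighbouring mitochondrial genes were read in the same fit, in which 13.9% of protein coding genes were called higher and 6.76% lower in cirrhosis. Of 46 tested assembly factors, 1 was upregulated in cirrhosis (Coa3, a complex IV factor, log2FC 0.53, FDR = 0.048) and 1 downregulated (Ttc19, a complex III factor, -0.53, FDR = 0.049), with a median of -0.09. Among 17 genes of the TCA cycle and pyruvate dehydrogenase, 14 had a log2FC below 0 in cirrhosis and the median was -0.29. Of these, Pdha1, the catalytic subunit of pyruvate dehydrogenase, fell with a log2FC of -1.22 ± 0.31 (FDR = 0.014), and Suclg2 (-0.99, FDR = 0.033) and Cs, citrate synthase (-0.56, FDR = 0.035), fell too. Idh2, the NADP-dependent mitochondrial isocitrate dehydrogenase, rose (0.71 ± 0.17, FDR = 0.012, edgeR) and was also higher with eplerenone than in control (0.76, FDR = 0.020). With eplerenone against cirrhosis 14 of the 17 were higher, with a median of 0.15 and none DEG, beside the median of -0.42 for respiratory chain genes.

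Of 19 genes of nucleotide and phosphate carriers, electron transfer flavoprotein and coenzyme Q synthesis, 3 were upregulated and 5 downregulated in cirrhosis. The shares over all protein coding genes were 13.9% and 6.76%. Slc25a4, the adenine nucleotide carrier typical of heart and muscle, rose from 6.10 ± 1.02 FPM (SD, n = 4) to 30.8 ± 14.4 FPM (SD, n = 5), a log2FC of 2.34 ± 0.48 (FDR = 0.0051). Slc25a5, a second form of this carrier that was picked as its partner after its values were seen, fell from 321 ± 6.80 to 215 ± 47.2 FPM (-0.58, FDR = 0.045). Etfa and Etfdh, which pass electrons from fatty acid oxidation to coenzyme Q, fell (-0.78, FDR = 0.012, and -1.14, FDR = 0.023), and Coq8b, a factor of coenzyme Q synthesis, rose (0.64, FDR = 0.033, edgeR). Among 21 genes of import and the outer membrane only Vdac2, a voltage-dependent anion channel, was DEG (0.52, FDR = 0.045), and 16 of the 21 were higher. None of these 2 lists held a DEG in either eplerenone comparison.

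Of 18 hypoxia-inducible genes, 2 were upregulated and 2 downregulated in cirrhosis, near the share of all protein coding genes called (20.6%, with 13.9% higher and 6.76% lower). Ndrg1 (log2FC 1.84 ± 0.42, FDR = 0.0083) and Egln3, an oxygen-sensing prolyl hydroxylase (2.32 ± 0.63, FDR = 0.021), rose. Vegfa (-1.29 ± 0.31, FDR = 0.012) and Pdk1, a kinase that inhibits pyruvate dehydrogenase (-0.73 ± 0.20, FDR = 0.021, edgeR), fell. With eplerenone against control, Ndrg1 (1.70, FDR = 0.028) and Pfkfb3, an activator of glycolysis (1.61, FDR = 0.037, edgeR), were upregulated, beside 4.5% of protein coding genes. No gene of this list was DEG against cirrhosis.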

How the data were processed

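RNA of rat livers (4 control, 5 cirrhosis, 5 cirrhosis & eplerenone) was sequenced by the authors as poly(A) libraries with paired reads of 150 bp. The deposited values were raw counts of reads per gene, which the authors obtained by alignment to rn6 with HISAT2 2.1.0 and counting over exons with featureCounts 2.0.0, with multi-mapping reads kept; the strand setting was not stated.

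Genes with enough reads (filterByExpr, minimum count 10) numbered 14417 and were fitted together in edgeR 4.0.16 with TMM factors and the quasi-likelihood test on the 3 groups (R 4.3.3). DEG were genes with an adjusted p-value (FDR, Benjamini-Hochberg over all tested genes) below 0.05. DESeq2 1.42.0, other scalings and filters, left-out rats, a replicate block and the label number were tried as alternatives. log2 FPM used a prior count of 2. The script was tested on simulated counts with 200 changed genes. Samples of a group were separate rats per the labels, and no libraries agreed within sampling noise.

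The member genes and gene lists were chosen with earlier results of these data known. Genes were named by a fixed rule: all called members, the highest and lowest log2FC of each complex in cirrhosis, core subunits, tissue isoforms and up to 4 called genes of each other list. Genes picked after their values were seen are marked as such or were named because their groups did not overlap. Promoters were taken from RefSeq and matched by symbol. A single member gene enters the counts, medians and complex means but is not reported here by name.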

Additional observations from a re-analysis of the deposited data

Results flagged for a closer look

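In 5 of 123 sets of 4 or 5 rats tested for a single distant value on the log2 FPM scale, 1 rat stood apart from its group, and chance alone gives about 1 in 20. The mean of the 4 complex II genes was 6.69 in cirrhosis replicate 4, below the other 4 cirrhosis livers at 7.10 to 7.24. Atp5f1c, the gamma subunit that turns inside ATP synthase, was lowest in the same rat at 7.23, with the others at 7.76 to 7.94. Atp5if1 was highest in control replicate 2 at 5.13, where the other controls were at 4.29 to 4.38. Sdhd was highest in cirrhosis replicate 5 at 7.25, with the others at 6.69 to 6.81, and Uqcrc2 was highest in cirrhosis replicate 2 at 6.61, with the others at 5.63 to 5.78. The causes were not tested.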

How the results depend on the processing

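Of the summary values under the alternatives, 440 stayed within the spread of rats or within 1.5 times the count and 49 moved, with no called value turning its sign. In cirrhosis against control the 4 called genes became 11 with library totals, 1 with at least 10 counts in every sample, 7 with 4 samples per group, 1 with the replicate block and 1 without cirrhosis replicates 1 and 3 (added after the data were seen), and 1 (without control replicate 5) to 7 (without cirrhosis replicate 5) when single rats were left out. Over all protein coding genes the called number was 2809 of 13628 in the main fit. In these settings, in the same order, it was 3308 of 13628, 1940 of 10853, 4642 of 13388, 1688 of 13628 and 1013 of 13747. It was 1320 of 13896 without control replicate 5 and 4427 of 13579 without cirrhosis replicate 5. In cirrhosis & eplerenone against control the 1 called gene became 4 with DESeq2, 0 with library totals, 0 with the replicate block, 3 with only the 2 groups fitted, 2 without cirrhosis replicates 1 and 3, and 0 (without control replicate 2 or 4) to 2 (without cirrhosis replicate 4 or eplerenone replicate 2) when single rats were left out. Over all protein coding genes the called number was 729 of 13628 in the main fit. With DESeq2, library totals and the replicate block it was 1476, 1321 and 261 of 13628. With only the 2 groups fitted it was 754 of 12948, and without cirrhosis replicates 1 and 3 it was 619 of 13747. Without control replicate 2 or 4 it was 397 of 13902 and 401 of 13895. Without cirrhosis replicate 4 or eplerenone replicate 2 it was 700 of 13507 and 1239 of 13593. Rats with the same replicate number did not deviate together (correlations of -0.33 to 0.19 over 13 pairs, 3 of them over 0.1), so the numbers were not taken to pair the samples.

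Without cirrhosis replicates 1 and 3, the median log2FC in cirrhosis was -0.26, -0.21, -0.12 and -0.15 for complexes I, III, IV and V, and in cirrhosis & eplerenone against cirrhosis -0.087, -0.017, -0.11 and -0.069. Within label number 20 the medians in cirrhosis & eplerenone against cirrhosis were -0.076, 0.017, -0.20 and -0.010 for the same complexes. With library totals, the medians in cirrhosis were -0.038, 0.48 and 0.44 for complexes II, III and V, and against control in cirrhosis & eplerenone -0.030, 0.037, 0.15, 0.087 and 0.090 for complexes I to V. The median of all protein coding genes moved too, to 0.28 and 0.32 in these comparisons. Relative to it, complexes II, III and V in cirrhosis were at -0.31, 0.22 and 0.17 with TMM scaling. Without TMM scaling they were at -0.32, 0.20 and 0.15. Differences in mean log2 FPM with library totals were 0.29, -0.019, 0.33 and 0.46 for complexes I, II, III and V in cirrhosis, and -0.013, 0.053, 0.11 and 0.15 for the same complexes with eplerenone against control. The causes were not tested. Values under 0.121 to 0.191 FPM stand for fewer than 3 reads, which limits Cox6a2 and the untested isoforms.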
